A study of Drosophila melanogaster with 12 samples.

Results

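A set of 70 of the 16637 transcripts on the array was chosen by their measured values. Their RNA was higher in CP190-depleted than in control Drosophila Kc cells after 48 h of hormone. At 0 and 3 h a limit kept the difference small, not at zero. The rule took the mean log2 intensity of each group and the difference c, CP190 RNAi minus control RNAi at the same hour. It kept transcripts with c of at least 0.6 at 48 h (1.52-fold) and within 0.3 of zero at 0 and 3 h. Their highest group had to exceed a random-sequence control by more than 1 on the log2 scale, an intensity of 835. Hormone changes averaged over both RNAi arms had to lie within 0.4 of zero at 3 h and within 1.5 at 48 h. These limits used every contrast between the groups, so the values below are a description of what was chosen, and counts past a test's threshold among these transcripts are no evidence for the pattern.

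The 12 single-colour arrays hold 2 biological replicates in each of 6 groups. Control cells received RNAi against beta-galactosidase and were collected untreated (0 h) or after 3 or 48 h of 20-hydroxyecdysone (20HE). The other 3 groups had RNAi against the insulator protein CP190 and the same 0, 3 and 48 h of 20HE. The labels name no untreated group at 3 or 48 h, so hormone and time cannot be told apart. Changes from 0 h are called hormone changes or responses here for short. The labels do not give the length of the RNAi treatment, and whether CP190 RNA fell was not analysed here. All groups are of 1 cell line, named Kc in every title; the extraction protocol also names Mbn2 cells. Array medians lay between 1136 and 1227, and replicate arrays had correlations of 0.994 to 0.997 across transcripts. A level within 1.5-fold of the random-sequence control (intensity 413 to 425) is called near background.

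CP190 is a zinc-finger protein that sits on chromatin with DNA-binding partners such as CTCF, Su(Hw) and BEAF-32. Together they form insulators, elements that can separate an enhancer from a promoter or mark the edge of a chromatin domain. 20HE is the insect moulting steroid. It binds the EcR and Usp nuclear receptor pair, switches on early genes that encode transcription factors, and through them a later wave of changes; Kc cells stop dividing and change shape. The array gives a FlyBase transcript identifier per row. None of the 70 identifiers is paired with a gene in the RefSeq table used here (Release 6 assembly), so no gene name, role, position or sequence is given.

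The rule narrowed 314 transcripts in steps. That many had c of at least 0.6 at 48 h, and 212 of them were left out because c was not within 0.3 of zero at both 0 and 3 h. The level requirement left out 8 and the limits on the hormone changes 24, of which 23 were higher at 48 h by a mean of at least 1.5 and 0 were lower by that much. The members just inside the 48 h threshold had c of 0.60, 0.60 and 0.62, and the transcripts just outside it had 0.59, 0.59 and 0.58, so the edge of the set is not a gap in the data.

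At 48 h the CP190 effect on the 70 transcripts ran from 0.60 to 1.97, with a median of 0.73 (1.66-fold). Most effects were modest: 45 lay below 0.8, and 17 reached 1. At 0 h the effects ran from -0.29 to 0.25 (median 0.043) and at 3 h from -0.29 to 0.30 (median 0.044), where the median of all transcripts was -0.0094 and -0.019. More members were above than below zero before 48 h, 44 of 70 at 0 h and 48 of 70 at 3 h. Of all 16637 transcripts, 7917 were above zero at 0 h and 7452 at 3 h. In limma's fit over all 12 arrays, with Benjamini-Hochberg adjustment over all 16637 transcripts and a threshold of 0.05, 65 members were called higher at 48 h, where 3.17% of all transcripts were. At 0 h limma called 0 members (4.45% of all transcripts higher, 2.89% lower), with 4 at an unadjusted p under 0.05. At 3 h it called 0 (4.33% higher, 1.88% lower), with 5 at an unadjusted p under 0.05. The share of all transcripts at that unadjusted level is not given here, and the rule's limit of 0.3 kept the members' effects small at both times. After subtracting the random control (floor 50) before taking log2, 38 members were called at 48 h, 2 were called higher at 0 h and 2 at 3 h. With the replicate block 1 was lower at 3 h, and centring each array moved the split of 3 h calls over all transcripts from 721 higher and 312 lower to 622 and 473.

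**Figure D1:**
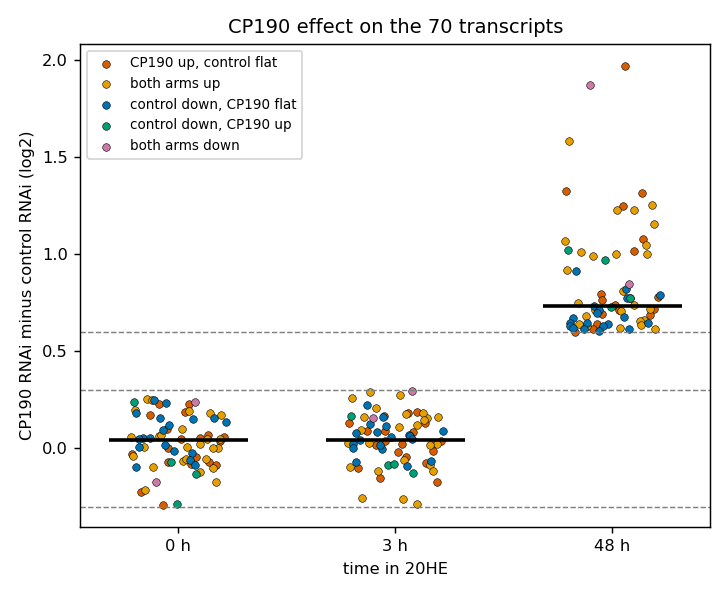
CP190 RNAi minus control RNAi (log2, y axis) at 0, 3 and 48 h of 20HE (x axis) for the 70 transcripts, each point a difference of means of 2 arrays, coloured by how both arms changed, with black bars at the medians and dashed lines at the limits of -0.3, 0.3 and 0.6. Medians of 0.043, 0.044 and 0.73 follow from the rule, and most points at 48 h lie just above the 0.6 line.

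The difference at 48 h arose in unlike ways. A transcript can be higher in CP190-depleted cells at 48 h because its level went up there, or because it went down in control cells and not after CP190 RNAi. With a limit of 0.3 on the log2 change from 0 to 48 h in each arm, chosen after the values were seen, 26 transcripts were up past the limit in both arms, by more after CP190 RNAi, and 19 were up in CP190 RNAi cells with control cells within the limit. In 19 others control cells were down past the limit and CP190 RNAi cells stayed within it. Another 4 were down in control and up in CP190 RNAi cells, and 2 were down in both arms, by less after CP190 RNAi. Up and down here sort mean values and are not calls of a test. "Raised" therefore describes the level against control cells at 48 h, and in 21 of the 70 the level in CP190 RNAi cells was not above its own 0 h level by more than 0.3.

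The division can also be described on single arrays. These are the arrays whose means made the rule and the patterns, so this is no separate check. In 49 transcripts both CP190 48 h arrays lay above the other 10 arrays (6.58% of all transcripts), and in 23 both control 48 h arrays lay below the other 10 (6.12%). Of these, 3 had both features, and 1 of the 70 had neither. All 70 had both CP190 48 h arrays above both control 48 h arrays, as did 22.8% of all transcripts. After centring each array on its median the up-in-both pattern held 18 transcripts and the pattern up in CP190 RNAi cells with control cells within the limit 25, since centring lowers 48 h changes (median of all transcripts in control cells -0.121, against -0.037 as deposited); 17 of the 19 down in control cells kept their pattern.

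**Figure D2:**
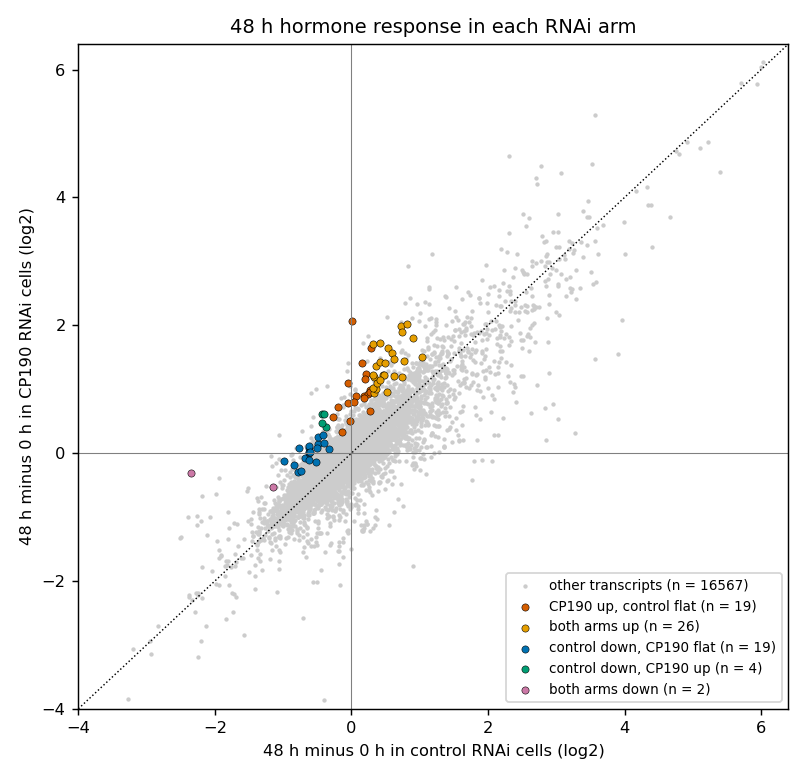
Log2 change from 0 to 48 h of 20HE in control RNAi cells (x axis) and in CP190 RNAi cells (y axis) for all 16637 transcripts, with the 70 coloured by pattern ("flat" means within 0.3 of zero) and the dotted line marking equal changes. The 70 lie above the line, from 19 with lower control levels and CP190 levels near zero change to 26 that were higher in both arms.

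In limma's fit, the 48 h response of control cells was called higher in 22 members (13.1% of all transcripts) and lower in another 22 (15.3%). In CP190 RNAi cells it was called higher in 49 (12.6%) and lower in 1 (13.9%). Of the 26 up in both arms, limma called 20 higher in control cells and 26 in CP190 RNAi cells. Of the 19 up with control cells within the limit, it called 2 higher in control cells and 19 in CP190 RNAi cells. Of the 19 down in control cells with CP190 RNAi cells within the limit, it called 18 lower in control cells and 1 higher in CP190 RNAi cells. Of the 4 with opposite signs, it called 2 lower in control cells and 3 higher in CP190 RNAi cells. Both transcripts down in both arms were called lower in control cells, and 1 of the 2 in CP190 RNAi cells. With the replicate block, 30 members were called higher in control cells, 50 higher in CP190 RNAi cells and 70 higher for the CP190 effect at 48 h. The block also raised these calls over all transcripts, to 2633 (from 2173), 2580 (from 2096) and 900 (from 527). Without any 1 of the arrays compared, the 22 higher calls in control cells became 14 and 13 (control 0 h replicate 1 and 2) and 13 and 12 (control 48 h replicate 1 and 2). The 1 lower call in CP190 RNAi cells became 2 after centring each array, and 0 with the random control subtracted or without CP190 0 h replicate 2 or CP190 48 h replicate 1. Centring moved the calls over all transcripts in control cells from 2173 higher and 2543 lower to 1767 and 3894, and in CP190 RNAi cells from 2096 and 2314 to 1744 and 3238. The CP190 RNAi response minus the control response had a median of 0.73 over the 70 and was called in 39 (0.823% of all transcripts, higher after CP190 RNAi), 15 of the 26 up in both arms among them. That count was 56 with the replicate block (288 over all transcripts) and 9 with the random control subtracted (67 over all transcripts). It was 23 and 22 without control 0 h replicate 1 or 2, 18 and 13 without control 48 h replicate 1 or 2, 17 and 23 without CP190 0 h replicate 1 or 2, and 20 without CP190 48 h replicate 1. These contrasts share the 0 h or the 48 h arrays.

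The patterns started from different levels, in part because of the level requirement. A transcript near background at 0 h could exceed 835 only by being higher later. A transcript that was not higher later had to start near or above 835. The 26 transcripts up in both arms were mostly near background at 0 h: their median intensity was 508 without and 525 with CP190 RNAi, and 17 of them were near background on both arrays of all 4 groups at 0 and 3 h. At 48 h their medians were 738 in control and 1461 in CP190 RNAi cells. Over the single arrays the median was 508 to 518 in control cells at 0 h, 724 and 779.8 in control cells at 48 h, and 1617 and 1502 in CP190 RNAi cells at 48 h, so on both CP190 48 h arrays it lay above that on the other 10. Background adds to levels near it, so log2 changes from 0 h may be understated for the 18 of the 26 that were near background on both control 0 h arrays. In control cells at 48 h, 2 of the 26 were still near background. Their changes ran from 0.32 to 1.03 in control cells and from 0.94 to 2.03 in CP190 RNAi cells.

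The 19 transcripts up in CP190 RNAi cells with control cells within 0.3 began at a median of 1267 in control cells, with 5 near background on all arrays of 0 and 3 h. Their median in control cells was 1189 at 3 h and 1351 at 48 h. In CP190 RNAi cells the medians were 1311, 1302 and 3153, with log2 changes at 48 h of 0.32 to 2.06. In these transcripts the 48 h group of CP190 RNAi cells stood apart from 5 groups at similar levels. FBtr0084151 had the largest effect of the set. Its intensity was 498 and 476 in control cells at 0 h, 442 and 478 at 3 h, and 465 and 516 at 48 h. In CP190 RNAi cells it was 432 and 490.2 at 0 h, 501 and 543 at 3 h, and 1819.5 and 2028 at 48 h. The other 10 arrays were near background and the pair of CP190 48 h arrays was far above them. The effect against control cells was 1.97 ± 0.098 on the log2 scale (limma SE), 3.92-fold as measured. Background may understate this value, and its choice as the largest of the set may overstate it. Neither was tested.

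FBtr0080927 was named for the next largest 48 h change in CP190 RNAi cells with control cells within 0.3. In control cells it measured 465 and 459 at 0 h, 429 and 403 at 3 h, and 524 and 601 at 48 h. In CP190 RNAi cells it measured 431 and 475 at 0 h, 449 and 461 at 3 h, and 1082 and 1839.6 at 48 h. Both CP190 48 h arrays lay above the rest, but they were far apart. The effect of 1.33 ± 0.18 (2.51-fold as measured) was 1.04 on the replicate 1 arrays and 1.61 on the replicate 2 arrays. Control cells had a change of 0.28 from 0 to 48 h, close to the limit that sorted it and not called (limma adjusted p = 0.306). With the random control subtracted that change was 1.53 and was called (adjusted p = 0.0265), and at 0.28 it was also called without either CP190 48 h array (adjusted p = 0.0449). The 48 h effect with the random control subtracted was 2.76 for FBtr0080927 and 4.37 for FBtr0084151. The subtraction had a floor of 50. In control cells at 0 h FBtr0080927 (465 and 459) lay close to the random control (413 to 425), so the 1.53 depends on that floor. The 4.37 may also depend on it, as FBtr0084151 measured 465 on the control 48 h replicate 1 array. The 2.76 used control levels further from the random control (524 and 601 at 48 h).

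The 19 transcripts down in control cells with CP190 RNAi cells within 0.3 were well expressed, with median intensities of 4866 (control) and 5071 (CP190 RNAi) before hormone. At 48 h the medians were 3174 and 5156. Their changes ran from -0.99 to -0.33 in control cells and from -0.29 to 0.28 in CP190 RNAi cells, and 12 of the 19 were over 4-fold above the random control on every array. None of the 19 reached an effect of 1 at 48 h, whereas 6 of the 19 up in CP190 RNAi cells and 9 of the 26 up in both arms did.

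FBtr0081417 had the largest decrease in control cells among transcripts with CP190 RNAi cells within 0.3. Control cells gave 3027 and 3549 at 0 h, 3119 and 3056 at 3 h, and 1503 and 1821 at 48 h. CP190 RNAi cells gave 3004 and 3849 at 0 h, 2903 and 3477 at 3 h, and 2869 and 3376 at 48 h. The control 48 h arrays were below the other 10, which overlapped one another. The 48 h effect was 0.91 ± 0.15 (1.88-fold), made of a control change of -0.99 and a CP190 change of -0.13. FBtr0083764 followed, with 3765 and 3847 in control cells at 0 h, 3942 and 3643 at 3 h, and 2090.0 and 2145 at 48 h. In CP190 RNAi cells it had 4456 and 3928 at 0 h, 3921 and 4148 at 3 h, and 3738 and 3599 at 48 h. Again the control 48 h arrays stood alone at the bottom, with changes of -0.85 in control and -0.19 in CP190 RNAi cells. The CP190 change was not called as deposited, and after centring each array it was -0.26 and called lower (limma adjusted p = 0.0487).

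Among the 6 remaining transcripts, FBtr0077008 had the next largest effect of the whole set, 1.87 ± 0.21 (3.66-fold), and very bright signals. In control cells it measured 27140.4 and 37666 at 0 h, 30185 and 19692 at 3 h, and 7006 and 5580.1 at 48 h. In CP190 RNAi cells it measured 30630.0 and 26221 at 0 h, 23686 and 31219 at 3 h, and 23622 and 22193 at 48 h. Control 48 h arrays were far below the others, while those of CP190 RNAi cells at 48 h lay just below the other CP190 RNAi arrays and above 1 of the control 3 h arrays. The change was -2.35 in control cells (5.11-fold lower) and -0.31 in CP190 RNAi cells, just past the limit that put it among the transcripts down in both arms; the latter change was not called (limma adjusted p = 0.346). In the 4 transcripts whose changes had opposite signs, control cells had changes of -0.44 to -0.37 and CP190 RNAi cells of 0.41 to 0.62. In bulk RNA, fewer cells that express a transcript and less RNA per cell cannot be told apart.

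**Figure D3:**
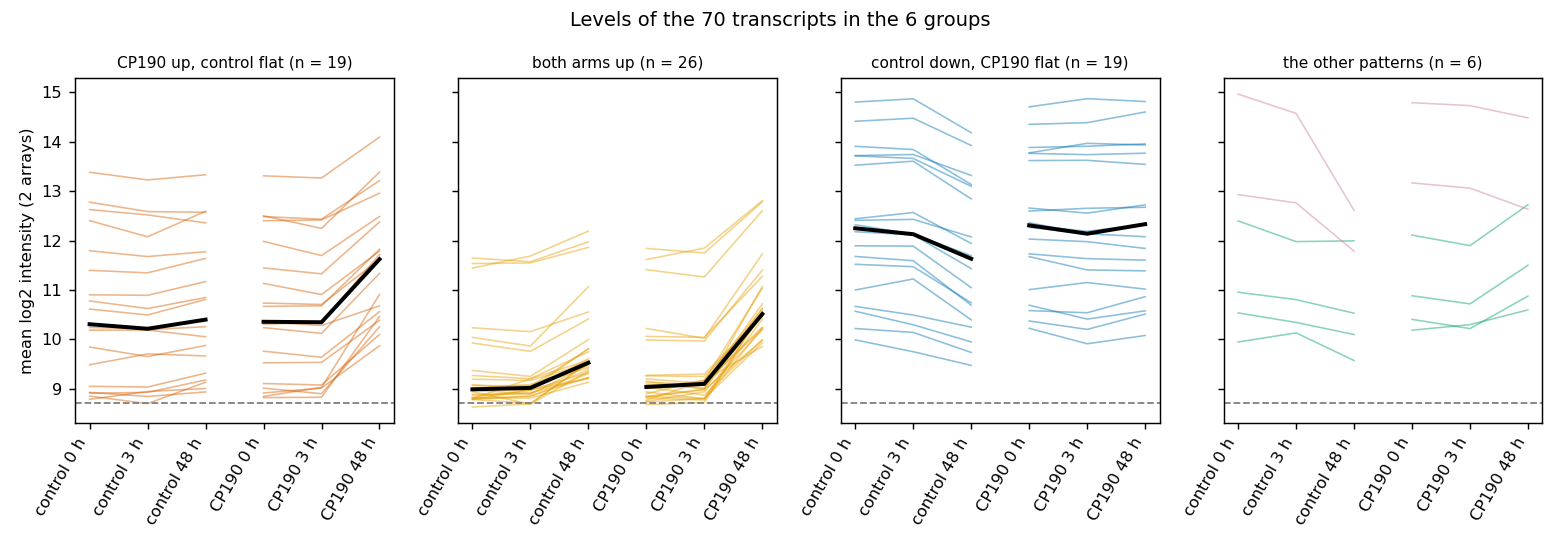
Mean log2 intensity of 2 arrays (y axis) for each of the 70 transcripts (thin lines) in the 6 groups (x axis), split by pattern, with the median of a pattern in black (none for the last 6, of which 4 in green had changes of opposite sign and 2 in pink were down in both arms) and the random-sequence control as a dashed line. Most of the 26 transcripts up in both arms start near the dashed line, and the 19 down in control cells start well above it. The level requirement of the rule partly sets this contrast.

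**Figure D4:**
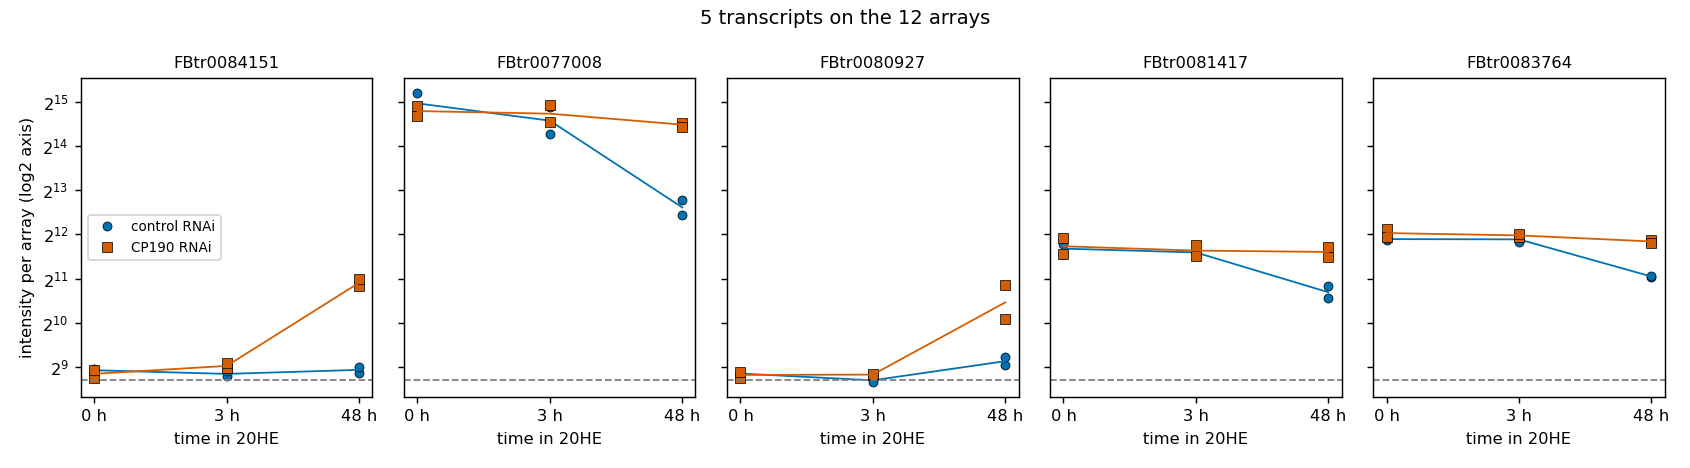
Intensity on each of the 12 arrays (y axis, log2 scale) against time in 20HE (x axis) for the 5 transcripts named here, with control RNAi as circles, CP190 RNAi as squares, lines through the group means and the random-sequence control dashed. FBtr0084151 and FBtr0080927 leave the background in CP190 RNAi cells at 48 h, and FBtr0077008, FBtr0081417 and FBtr0083764 drop in control cells at 48 h.

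Over all 70, the CP190 48 h group was the highest of the 6 in 58 and the control 48 h group the lowest in 26. Both counts largely follow from the rule. At 3 h the transcripts had hardly moved in either arm, with median changes of -0.058 in control and -0.042 in CP190 RNAi cells, within limits the rule set on their mean. The median intensity of the 70 was 1289 and 1314 on the control 0 h arrays, 1233 and 1153 at 3 h, and 1238 and 1233 at 48 h. On the CP190 RNAi arrays it was 1364 and 1332 at 0 h, 1204 and 1272 at 3 h, and 2618 and 2141 at 48 h. Replicate arrays of CP190 RNAi cells at 48 h differed by a median of 0.179 over the 70 (0.107 over all transcripts), and by 0.380 over the 26 up in both arms, 17 of which were higher in replicate 1. In control cells at 48 h the 70 differed by 0.112 (0.091 over all transcripts).

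The 48 h effect was present on both pairs of arrays with the same replicate number. It ran from 0.50 to 1.97 on replicate 1 arrays and from 0.34 to 1.99 on replicate 2 arrays, with medians of 0.74 on each. It was at least 0.6 on both in 48 transcripts, on replicate 1 in 60 and on replicate 2 in 58. All 12 arrays entered the choice, so this is no independent check.

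A reading on arrays that did not choose the transcripts was made by applying the rule to 1 replicate number and reading the other. On replicate 1 arrays alone the rule chose 81 transcripts. On the replicate 2 arrays their 48 h effect ran from 0.19 to 1.98 with a median of 0.71 (median of all transcripts -0.0089), and 52 of the 81, or 64.2%, were at least 0.6, as were 1.81% of all transcripts. On replicate 2 arrays alone it chose 56. On the replicate 1 arrays these ran from 0.030 to 1.97 with a median of 0.72, and 38 of the 56, or 67.9%, were at least 0.6 (2.14% of all transcripts). The effect was above zero in all 81 and all 56, where 47.7% and 48.7% of all transcripts were. The chosen transcripts had also met the level requirement, while 37.5% to 39.9% of all transcripts on an array were near background. These shares therefore compare unlike sets. The limit on the effect at 0 and 3 h was met less often than over all transcripts. On the other arrays 43 of the 81 (53.1%) and 40 of the 56 (71.4%) were within 0.3 of zero at both times, where 72.7% and 77.6% of all transcripts were. For the 81, the median effect on the replicate 2 arrays was 0.115 at 0 h and 0.187 at 3 h. For the 56, it was -0.017 and -0.039 on the replicate 1 arrays. The rule was met in full on both replicate numbers separately by 22 transcripts. All 22 were among the 70, which nearly has to follow, since the rule on all arrays uses the means of the replicates. What replicates of the same number share is not given by the labels.

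**Figure D5:**
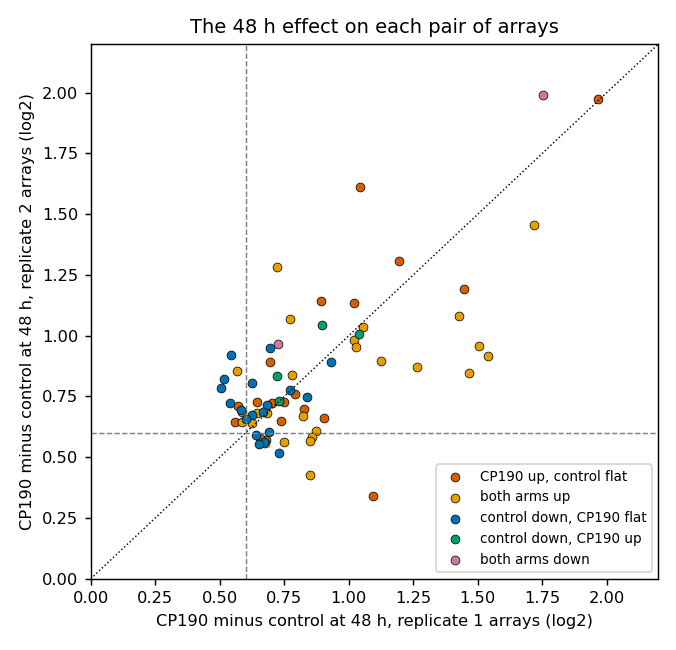
CP190 RNAi minus control RNAi at 48 h (log2) on the replicate 1 arrays (x axis) and on the replicate 2 arrays (y axis) for the 70 transcripts, coloured by pattern, with dashed lines at 0.6 and a dotted line of equality. In 48 transcripts both values are at least 0.6, and the points spread widely about the dotted line.

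Some of the 70 may not be separate genes. Identifiers of 10 form 5 pairs of consecutive numbers. Whether a pair belongs to 1 gene was not analysed here, and 62 of the 70 have a consecutive number somewhere in the table. The 48 h effects of the 10 ran from 0.62 to 1.33. FBtr0080927 is one of them; its neighbour in number was up in both arms. In 3 of the 5 pairs both members had the same pattern over the arms.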

How the data were processed

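The authors deposited 1 table of linear intensity values, 1 per transcript and array, made with RMA per the submitters' processing notes (a method that corrects background, equalises arrays and summarises the probes of a feature). The sources used here name no version, annotation or build. All 12 columns are single samples, and none duplicates another.

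The log2 of the deposited intensity was taken with no pseudocount or filter, and limma 3.58.1 in R 4.3.3 (lmFit, eBayes) fitted 6 group means to 12 arrays, with 6 residual degrees of freedom. P-values were two-sided and adjusted over 16637 transcripts per comparison; the random-sequence control was left out. The fit was tested on simulated data. Precision is limited by having 2 arrays a group.

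The set of 70, the contrasts, the naming rule (the 2 largest 48 h effects, the 2 largest CP190 rises with control within 0.3, the 2 largest control falls with CP190 within 0.3; FBtr0084151 comes under 2 of these) and the gene lists were chosen with earlier results of these data known. As 44 identifiers match the RefSeq table and none of the 70 does, no gene list could be used. Over 15 pairs of groups, differences between replicates 1 and 2 correlated by 0.147 to 0.608, so by the rule used here the numbers pair the samples. Counts of calls with the replicate block are given where they change a result. Unless the block is named, calls and SEs are from fits without it and ignore this pairing. Alternatives were array centring, quantile normalization, fewer arrays, another prior, a filter, subtraction of the random control, and leaving out each array.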

Additional observations from a re-analysis of the deposited data

Results flagged for a closer look

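The response from 0 to 48 h of 20HE differed between the RNAi arms past limma's threshold in 39 of the 70 transcripts, each of them higher after CP190 RNAi. The rule chose transcripts for nearly this difference, so the count describes the choice. Among the transcripts named, the difference was 2.05 ± 0.14 (SE, log2) for FBtr0084151, with near-background levels on 10 arrays. It was 2.05 ± 0.30 for FBtr0077008, which did not pass with the random control subtracted (limma adjusted p = 0.0721). It was 1.36 ± 0.26 for FBtr0080927, which did not pass without either array of control cells at 0 or 48 h or without CP190 0 h replicate 1 (adjusted p of 0.0523 to 0.0888), nor with the random control subtracted (0.0891). It was 0.66 ± 0.12 for FBtr0083764, which did not pass without either control array at 48 h, replicate 2 of either arm at 0 h, or CP190 48 h replicate 1 (adjusted p of 0.0521 to 0.0671). For FBtr0081417, also named here, the difference was 0.86 ± 0.21 and did not pass (limma adjusted p = 0.0630). The cause of these differences was not tested.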

How the results depend on the processing

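The rule chose 117 transcripts with a 48 h threshold of 0.5 and 25 with 0.8, and between 61 and 88 without 1 array; centring or quantile normalization gave 74 each, 64 and 66 of them among the 70. The median 48 h effect over the 70 was 0.72 after centring, 0.75 after quantile normalization, 1.12 with the random control subtracted and 0.73 to 0.77 without 1 array. With the replicate block, calls over all transcripts became 1330 higher and 1284 lower at 0 h (from 740 and 481), 1223 and 868 at 3 h (from 721 and 312), 900 higher at 48 h (from 527) and 288 for the difference of responses (from 137), and among the 70 there was 1 lower call at 3 h. With only the arrays compared there were 416 higher and 137 lower at 0 h. Centring gave 473 lower at 3 h, 3894 lower in control cells at 48 h, and 2 of the 70 lower in CP190 RNAi cells. With the random control subtracted there were 340 higher at 48 h and 67 higher differences of responses over all transcripts. Among the 70, that setting gave 38 and 9, 2 higher at 0 h, 2 higher at 3 h and 0 lower in CP190 RNAi cells. Its floor was 50.

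Leaving out 1 array gave, over all transcripts, 397 to 758 higher and 140 to 694 lower at 0 h, 363 to 757 higher and 97 to 358 lower at 3 h, and 273 to 555 higher at 48 h. It gave 1476 to 2550 lower responses in control cells, 1308 to 2474 lower in CP190 RNAi cells, and 66 to 140 higher differences. Among the 70, it gave 51 to 65 calls at 48 h, 12 to 26 higher in control cells, 0 to 1 lower in CP190 RNAi cells and 13 to 39 differences. The 48 h effect of the 5 named transcripts kept its direction and its call under every alternative run. An array left out leaves a group with 1 array, assumed to vary like the others. The cause of these changes was not tested beyond fewer arrays entering the fit. Of the 70, 23 were near background on both control 0 h arrays and 6 on both control 48 h arrays, where background may understate changes from 0 h and 48 h effects.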

Other observations

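With the sign at 48 h turned, the same rule chose 49 transcripts, lower after CP190 RNAi at 48 h and within 0.3 of zero at 0 and 3 h. In 20 of these both arms were up at 48 h, control cells more, and in 18 control cells were up and CP190 RNAi cells within 0.3 of zero. In 6 CP190 RNAi cells were down with control cells within 0.3, in 3 the mean changes of the arms had opposite signs past 0.3, and in 2 both were down. An effect of at least 0.6 at 0, 3 and 48 h, with the same limits on level and hormone changes, was found in 82 transcripts. These counts were not compared by a test.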
